A study of Mus musculus with 14 samples.

Results

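Genes of the heat shock 70 (HSP70) family, 9 in number, and the heat shock factor gene Hsf2 were followed in sorted male germ cells of mice without the DNA methyltransferase DNMT3C. The 10 members were Hspa1a, Hspa1b, Hspa1l, Hspa2, Hspa4, Hspa4l, Hspa5, Hspa8, Hspa9 and Hsf2, taken by name from the 31111 genes present in both count tables, and all 10 were found and passed the filter on low counts in every comparison. Polyadenylated RNA had been sequenced from spermatogonia (Spg) of mice at postnatal day 14 and from spermatocytes (Spc) of mice older than 20 days, in 14 libraries. The groups were 3 Spg and 4 Spc libraries labelled Dnmt3CKO/KO (KO) and 3 Spg and 4 Spc libraries labelled wild-type (WT), all on the C57Bl6/J background. The labels name no conditional allele or transgene, and cells of littermates were collected. Spg had been sorted as cells negative for beta-2-microglobulin and positive for Ep-CAM, and Spc by the Hoechst stain of DNA. The study states that KO germ cells arrest at pachytene and that the WT sort of Spc also holds a later stage, so genotype and stage cannot be told apart within Spc.

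HSP70 proteins are chaperones that bind unfolded stretches of other proteins and release them in a cycle driven by ATP, started by J-domain cochaperones and reset by nucleotide exchange factors. Heat shock factors are the transcription factors that switch on inducible HSP70 genes when proteins unfold, and HSF2 is also known for roles in spermatogenesis. The testis uses HSP70 genes of its own: Hspa2 is switched on in meiosis and is needed there for the synaptonemal complex to come apart and for male fertility, and Hspa1l is expressed in spermatids.

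The upstream sequences of Hspa1a, Hspa1b and Hspa1l are shown because these 3 genes lie side by side on chromosome 17 and moved in opposite directions. Each is the 250 bases before the RefSeq start on GRCm38.p6, written 5′ to 3′ along the gene, with capitals marking a match to the heat shock element GAANNTTC.
Hspa1a, chr17:34972157-34972406, minus strand: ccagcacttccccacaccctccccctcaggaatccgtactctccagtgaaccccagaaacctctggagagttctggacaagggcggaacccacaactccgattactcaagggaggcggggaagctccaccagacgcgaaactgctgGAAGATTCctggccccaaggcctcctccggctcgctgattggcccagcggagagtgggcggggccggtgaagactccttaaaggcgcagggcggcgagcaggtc
Hspa1b, chr17:34959239-34959488, minus strand: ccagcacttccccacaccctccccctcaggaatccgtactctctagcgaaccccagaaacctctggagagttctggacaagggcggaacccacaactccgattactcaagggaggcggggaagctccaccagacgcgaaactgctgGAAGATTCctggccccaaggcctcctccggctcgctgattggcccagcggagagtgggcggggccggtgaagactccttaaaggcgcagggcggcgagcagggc
Hspa1l, chr17:34972453-34972702, plus strand: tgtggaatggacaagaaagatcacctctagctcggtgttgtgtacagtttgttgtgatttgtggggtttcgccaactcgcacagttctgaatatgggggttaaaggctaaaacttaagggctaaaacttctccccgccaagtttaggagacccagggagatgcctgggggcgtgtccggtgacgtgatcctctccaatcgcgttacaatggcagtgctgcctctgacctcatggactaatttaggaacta

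Upstream of Hspa1a and Hspa1b, 98.8% of the 250 bases were identical. Counted from 1 at the first printed base, with the base of Hspa1a first, the 3 substitutions were C44T, T47C and T249G. Both windows held 1 match to GAANNTTC, from 104 to 97 bases before the start, and the Hspa1l window held none. RefSeq promoters of this kind were at hand for 8 of the 10 members. GAANNTTC was searched on both strands, as was its other arrangement TTCNNGAA, and 6.69% and 7.17% of the 32851 promoter windows of the same length held them, and 12.8% at least 1 of the pair. None of the other 6 member windows held either. The ER stress element, a CCAAT box 9 bases before CCACG, was found in 0.113% of all windows and among the members in Hspa5 alone, on the plus strand at chr2:34772025-34772043 as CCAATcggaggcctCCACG. In the annotation used for positions, 120 of the 250 bases of the Hspa5 window lay in exons. The match falls inside that gene, which is annotated from chr2:34771970. The windows of Hspa4l, Hsf2 and Hspa2 held 231, 169 and 114 exon bases. These matches describe letters in a window and were not tested for binding.

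In the annotation, Hspa1a (chr17:34969190-34972156, minus strand) and Hspa1l (chr17:34972703-34979285, plus strand) start 546 bases apart and are read away from each other, and Hspa1b (chr17:34956436-34959238, minus strand) lies 9951 bases beyond the end of Hspa1a. Hspa1a and Hspa1b are single-exon genes whose protein-coding sequences are nearly the same. Of all stretches of 1 read's length in the Hspa1a transcript, 45.5% also occurred in Hspa1b, and 48.3% of those of Hspa1b occurred in Hspa1a, so the split of reads between the pair is uncertain. Hspa8 shared 61.3% of its stretches with 6 other genes, the predicted genes Gm15459 (56.6%), Gm8355, Gm6210, Gm7232, Gm8337 and Gm7899, and its counts carry the same uncertainty. Hspa1l shared 5.33% with its neighbours, and Hspa2, Hspa4, Hspa4l, Hspa5, Hspa9 and Hsf2 shared none. Hspa1a overlaps Gm20481 and Hspa1l overlaps Gm10501, in each case on the opposite strand, and the authors' counting used strand.

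Total counts per library, in units of 1000000, lay between 40.56 and 53.32. The RNA of the targeted gene did not check the labels: Dnmt3c was at 0.965 to 1.54 CPM in WT and 1.02 to 1.99 CPM in KO Spg, and at 0.332 to 0.87 CPM in WT and 0.991 to 1.16 CPM in KO Spc. KO and WT therefore stand for libraries labelled so. Replicates 1 and 4 of Spc were closer to each other than any other pair, in both genotypes, with a chi-square per degree of freedom of 13.8 in KO and 16.9 in WT, against 165 to 359 for the other Spc pairs. They differed by more than sampling noise and were kept apart, which does not show that they came from separate animals. With the pair summed to 1 sample in each genotype, 6 rather than 9 of the 10 members were called in Spc. Spermatogonial markers were highest in Spg, at a summed 1147.8 to 1758.4 CPM over 9 genes, and pachytene markers in WT Spc, at 9010.6 to 16997.4 CPM over 8 genes. In KO Spc the pachytene sum was 188.8 to 381.6 CPM, whereas the early meiotic sum over 8 genes, 1443.3 to 2822.1 CPM, overlapped that of WT Spc (1747.0 to 2782.1 CPM). Its genes went both ways, with Dmc1 higher in KO (114.2 to 128.2 CPM against 5.11 to 43.8 CPM), and Spo11 lower (20.6 to 40.8 CPM against 122.4 to 150.7 CPM). Markers of peritubular and stromal cells were at 501.9 to 5542.5 CPM in KO and 49.6 to 63.9 CPM in WT Spc. Most of the KO sum came from Col3a1, Col1a1 and Dcn, and Acta2 overlapped between the groups (4.8 to 86.1 CPM in KO, 1.84 to 5.33 CPM in WT). Levels below are CPM (counts per 1000000, scaled over the 14 libraries), and each genotype fold comes from the fit within its stage, with its standard error (SE). In these bulk samples fewer cells of a type and less RNA per cell cannot be told apart.

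**Figure D1:**
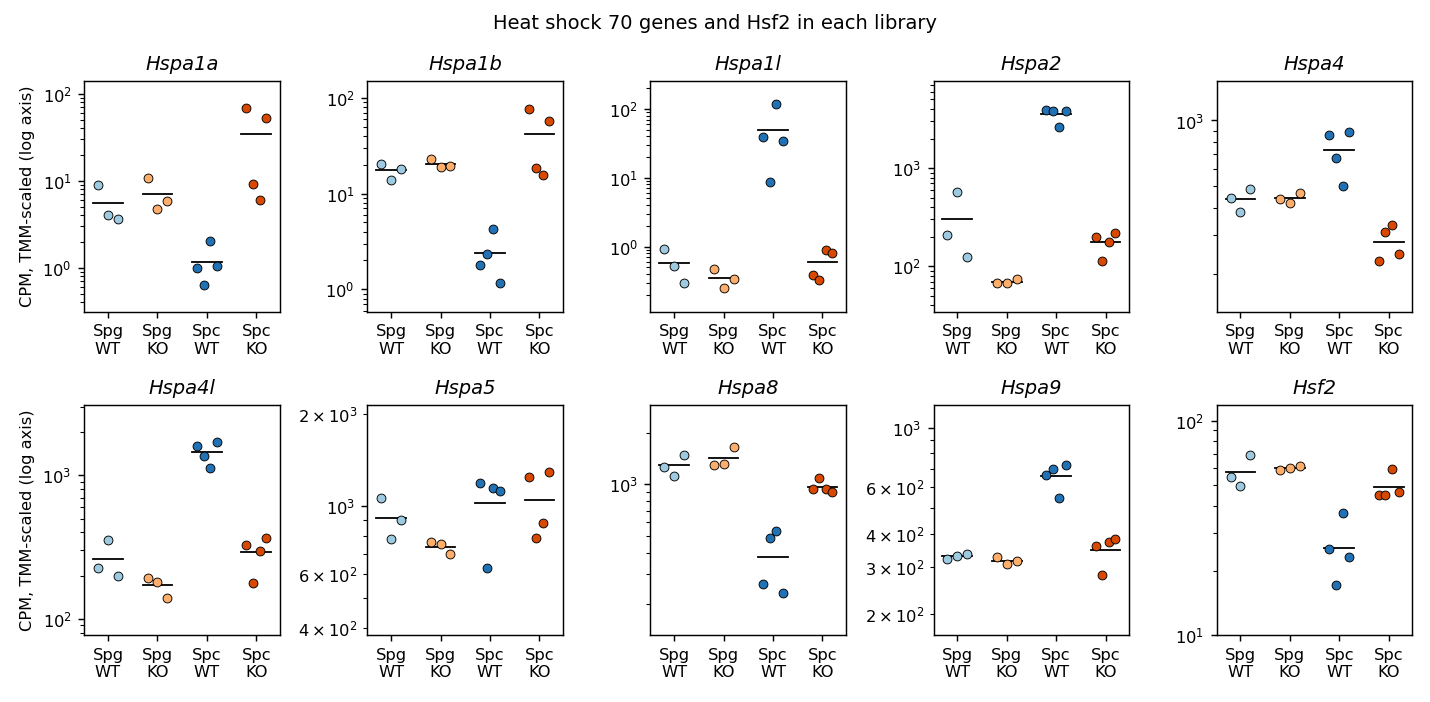
CPM of the 10 members on a log axis, with 1 point per library, lines at the group means and the 4 groups of Spg and Spc side by side. Hspa2, Hspa1l and Hspa4l stand out upwards in WT Spc, and Hspa1a and Hspa1b are lowest there, with KO Spc nearer to Spg than to WT Spc for Hspa2, Hspa1l, Hspa4l, Hspa8 and Hspa9.

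In spermatocytes 9 of the 10 members differed between KO and WT, with 4 higher and 5 lower in KO. The share called over all genes was 58.8% (28.0% higher, 30.7% lower), so a call in itself was common in this comparison. The groups were without overlap for the same 9 members, and for 68.4% of all genes. A gene was called at a Benjamini-Hochberg adjusted p under 0.01 in the edgeR quasi-likelihood test, two-sided. The genes lower in KO were the germ cell HSP70 genes Hspa1l and Hspa2, the HSP110 genes Hspa4l and Hspa4 and the mitochondrial Hspa9. The genes higher in KO were the inducible pair Hspa1a and Hspa1b, the constitutive Hspa8 and Hsf2. Hspa5, the HSP70 of the endoplasmic reticulum, was not called.

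Hspa2 (chr12:76404176-76406938, plus strand) had the highest level per length of the family in WT Spc. It was at 3931.2, 3792.1, 2619.0 and 3837.8 CPM in WT and at 199.1, 113.1, 178.2 and 216.5 CPM in KO Spc, replicates 1 to 4. Every WT library was far above every KO library, and the log2 fold change was -4.31 (SE 0.295, adjusted p = 4.13e-06 by edgeR). In Spg it was at 209.0, 569.9 and 125.7 CPM in WT and at 68.3, 67.6 and 74.1 CPM in KO, again without overlap. The log2 fold change there was -2.16 (SE 0.506), with an adjusted p of 0.163 by edgeR and 0.000526 by DESeq2. WT Spg replicate 2, the highest of the 3, also had the highest pachytene marker sum, 1478.7 CPM against 381.9 and 201.6 CPM in replicates 1 and 3 and 92.5 to 133.1 CPM in KO. Without that library the fold change in Spg was -1.27 (adjusted p = 0.0736 by edgeR). The part of these pachytene transcripts in the Hspa2 values was not tested.

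Known partners of HSPA2 were read beside it. Cdk1, the kinase whose pairing with cyclin B1 needs HSPA2, was not called in Spc (75.0 to 106.7 CPM in WT, 59.4 to 84.0 CPM in KO, log2 fold change -0.23), and Ccnb1, which encodes cyclin B1, rose (27.8 to 80.3 CPM in WT, 124.7 to 196.6 CPM in KO, log2 fold change 1.22, adjusted p = 0.00795 by edgeR). Shcbp1l, a spindle protein partner, fell from between 556.7 and 1319.8 CPM to between 26.4 and 33.0 CPM, a log2 fold change of -5.13. The transition protein genes Tnp1 and Tnp2, whose products replace histones in spermatids, fell from between 7.66 and 180.1 CPM and between 17.5 and 384.1 CPM to at most 1.7 and 0.972 CPM. Of the 5 partners, 4 were called in Spc, 3 lower and 1 higher, where 58.8% of all genes were called (30.7% lower, 28.0% higher).

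Hspa1l, the testis member beside Hspa1a, was at 39.1, 8.53, 116.5 and 34.5 CPM in WT Spc and at 0.384, 0.322, 0.877 and 0.794 CPM in KO Spc. The 4 WT libraries spread widely and the lowest of them was still above every KO library. The log2 fold change was -6.35 (SE 0.826, adjusted p = 0.000121 by edgeR), and -5.50 without WT replicate 3. WT replicate 3 also had the highest summed level of 7 spermatid markers, 1268.4 CPM, and replicate 2 the lowest, 64.6 CPM, with 456.1 and 400.6 CPM in replicates 1 and 4 and 2.83 to 9.53 CPM in KO. Spermatid RNA therefore moved with Hspa1l across the WT libraries, and its part in the fold change was not tested. In Spg the gene was near the floor of detection, at 0.246 to 0.934 CPM over both genotypes (log2 fold change -0.75, adjusted p = 1.0 by edgeR).

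Hspa4l (chr3:40744495-40796103, plus strand) and Hspa4 (chr11:53259814-53300457, minus strand) encode HSP110 proteins, relatives of HSP70 that act as its nucleotide exchange factors. Hspa4l was at 1608.5, 1359.7, 1128.9 and 1712.9 CPM in WT Spc and at 326.1, 176.9, 297.5 and 365.3 CPM in KO Spc. The groups were far apart, with a log2 fold change of -2.30 (SE 0.277, adjusted p = 7.8e-05 by edgeR). Hspa4 was at 860.9, 672.9, 504.6 and 884.5 CPM in WT and 229.5, 309.5, 333.6 and 247.0 CPM in KO, a log2 fold change of -1.37 (SE 0.247, adjusted p = 0.000767 by edgeR). Its call depended on the scaling and on the libraries: it was lost when libraries were scaled by their totals (-0.61, adjusted p = 0.0192 by edgeR) and without KO replicates 1 and 4 (-1.18, adjusted p = 0.0163), and it missed the threshold with replicates 1 and 4 summed (-1.21, adjusted p = 0.0102). In Spg, Hspa4l was lower in each KO library (193.1, 181.8 and 139.1 CPM) than in each WT library (226.6, 355.6 and 199.1 CPM) without passing the threshold (log2 fold change -0.65, adjusted p = 0.541 by edgeR). Without WT Spg replicate 2, the library with the high pachytene sum, it was -0.32 (unadjusted p = 0.0978, adjusted p = 1.0 by edgeR). Hspa4 overlapped between the genotypes in Spg (log2 fold change -0.02).

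Hspa9 (chr18:34937414-34954357, minus strand), the HSP70 of the mitochondrial matrix, was at 664.7, 698.9, 545.9 and 726.3 CPM in WT and at 358.8, 279.0, 372.3 and 381.1 CPM in KO Spc. The groups did not overlap (log2 fold change -0.90, SE 0.192, adjusted p = 0.00205 by edgeR). The call was lost with replicates 1 and 4 summed (-0.90, adjusted p = 0.0201) and without KO replicates 1 and 4 (-1.01, adjusted p = 0.0169). Scaled by library totals, the fold change was -0.19 (adjusted p = 0.252), while the median of all genes moved from 0.11 to 0.79. Relative to that median Hspa9 was lower under both scalings. In Spg it was at 307.1 to 336.0 CPM in the 6 libraries (log2 fold change -0.09).

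The inducible genes Hspa1a and Hspa1b went the other way from their neighbour Hspa1l in Spc. Hspa1b was at 1.79, 2.35, 4.31 and 1.15 CPM in WT and at 76.1, 18.5, 15.6 and 56.8 CPM in KO Spc. Hspa1a was at 0.988, 0.633, 2.04 and 1.04 CPM in WT and at 69.4, 9.19, 6.02 and 52.7 CPM in KO. For both genes the KO libraries fell into a high pair, replicates 1 and 4, and a low pair, replicates 2 and 3, all 4 above WT. The log2 fold change was 4.15 for Hspa1b (SE 0.637, adjusted p = 0.000309 by edgeR) and 4.88 for Hspa1a (SE 0.853, adjusted p = 0.000651). Without replicates 1 and 4 it was 2.85 for Hspa1b (adjusted p = 0.00294) and 2.699 for Hspa1a (adjusted p = 0.00393), and the pair summed to 1 gene gave 4.44 (adjusted p = 0.00033). In Spg neither gene was called: Hspa1b lay between 13.9 and 23.2 CPM and Hspa1a between 3.68 and 10.8 CPM, with log2 fold changes of 0.19 and 0.31.

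Other RNAs moved with the pair. The 16 immediate-early genes, which respond within minutes to stress and signals, summed to 7584.1, 1544.3, 998.6 and 5705.2 CPM in KO Spc against 104.7 to 183.7 CPM in WT Spc, with the same high and low pairs of KO libraries. Of these 16 genes 14 were called higher in KO Spc, as were 28.0% of all genes, and none lower. Fos rose from between 11.9 and 18.1 CPM to between 189.7 and 1998.3 CPM. Leydig markers were at 356.2, 57.3, 64.9 and 290.2 CPM in KO against 14.1 to 30.4 CPM in WT Spc, and endothelial markers at 146.5, 77.1, 19.7 and 130.7 CPM against 5.43 to 6.93 CPM. Peritubular and stromal markers were high in replicate 2 as well, at 5542.5, 4792.1, 501.9 and 4783.9 CPM. Macrophage markers were highest in that replicate, at 71.3, 145.1, 26.7 and 67.4 CPM against 3.17 to 7.14 CPM in WT. The sums of all these lists were above WT in each of the 4 KO libraries, and no gene of these lists was at or under 3 counts in every library of a Spc group. The Sertoli sum had the same high pair, at 433.2, 153.2, 114.3 and 387.3 CPM in KO, and overlapped with WT (65.3, 70.3, 189.5 and 54.4 CPM) through WT replicate 3 alone. The part of somatic cells and of the immediate-early RNA in the Hspa1a and Hspa1b values was not tested.

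**Figure D2:**
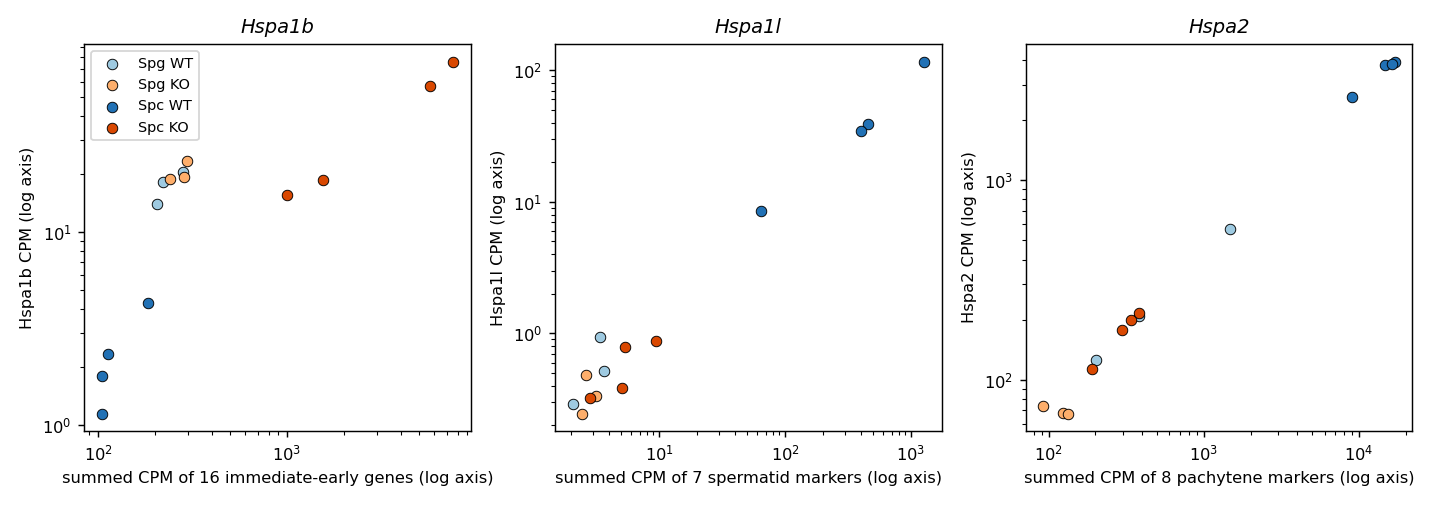
CPM of Hspa1b, Hspa1l and Hspa2 (vertical, log axis) against the summed CPM of 16 immediate-early genes, 7 spermatid markers and 8 pachytene markers (horizontal, log axis), with 1 point per library. KO Spc replicates 1 and 4 are highest for both Hspa1b and immediate-early genes, WT Spc replicate 3 for Hspa1l and spermatid markers, and WT Spg replicate 2 sits between the other Spg libraries and WT Spc for Hspa2.

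Hspa8 (chr9:40800984-40810087, plus strand), the constitutive HSP70 of the cytosol, was at 262.2, 483.4, 532.9 and 232.4 CPM in WT and at 940.0, 1089.6, 938.3 and 895.7 CPM in KO Spc. All KO libraries were above all WT libraries (log2 fold change 1.39, SE 0.273, adjusted p = 0.00128 by edgeR). Among the genes that share its sequence, Gm15459 had a log2 fold change of 1.57 (adjusted p = 0.00331) at 2.64 to 27.2 CPM over the 14 libraries, in the same direction. Spermatogonial markers were at 440.6, 1110.3, 1077.1 and 430.7 CPM in KO and 173.3, 383.6, 425.4 and 167.2 CPM in WT Spc, with 6 of 9 genes called higher in KO, as were 28.0% of all genes, and Id4 called lower (4.16 to 7.12 CPM against 130.7 to 227.8 CPM). Replicates 2 and 3 were the higher WT libraries for both the markers and Hspa8, whereas in KO replicate 3 had high markers but Hspa8 no higher than in replicate 1. Their part in the Hspa8 values was not tested. In Spg, Hspa8 was at 1111.5 to 1645.8 CPM and did not differ beyond the spread (log2 fold change 0.11, adjusted p = 1.0).

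Hsf2 (chr10:57486385-57513135, plus strand) was at 25.1, 17.1, 37.0 and 23.1 CPM in WT and 45.1, 45.2, 59.3 and 46.6 CPM in KO Spc. The groups did not overlap, and the log2 fold change of 0.96 (SE 0.269) had an adjusted p of 0.009 by edgeR, at the edge of the threshold. The call was lost when any 1 library other than WT replicate 3 was left out, with fold changes from 0.78 to 1.02 and adjusted p-values from 0.0137 to 0.0312. It was also lost without KO replicates 1 and 4 together (1.05, adjusted p = 0.0315). Hsf1, the main heat shock factor, was at 75.7 to 107.4 CPM in WT and 42.2 to 72.0 CPM in KO Spc (log2 fold change -0.71, adjusted p = 0.0171), and Hsf5, a factor of spermatocytes, fell from between 451.7 and 725.4 CPM to between 21.0 and 53.4 CPM (-3.80, adjusted p = 1.25e-05). In Spg, Hsf2 lay between 49.4 and 69.1 CPM in both genotypes (log2 fold change 0.03).

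Hspa5 (chr2:34771970-34777547, plus strand), which encodes BiP and is the standard readout of the unfolded protein response, was at 1185.9, 628.2, 1145.0 and 1122.9 CPM in WT and 1241.0, 787.5, 884.0 and 1291.6 CPM in KO Spc. The groups overlapped, with a log2 fold change of 0.06 (95% interval -0.48 to 0.59) and an adjusted p of 0.862 by edgeR. Scaled by library totals it was 0.74 (adjusted p = 0.02), beside a median of all genes of 0.79. Replicate 2 was the lowest library in each genotype. In Spg the KO libraries (763.6, 751.2 and 698.7 CPM) were below the WT libraries (1064.3, 779.1 and 901.3 CPM), at a log2 fold change of -0.34 with an adjusted p of 0.624.

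**Figure D3:**
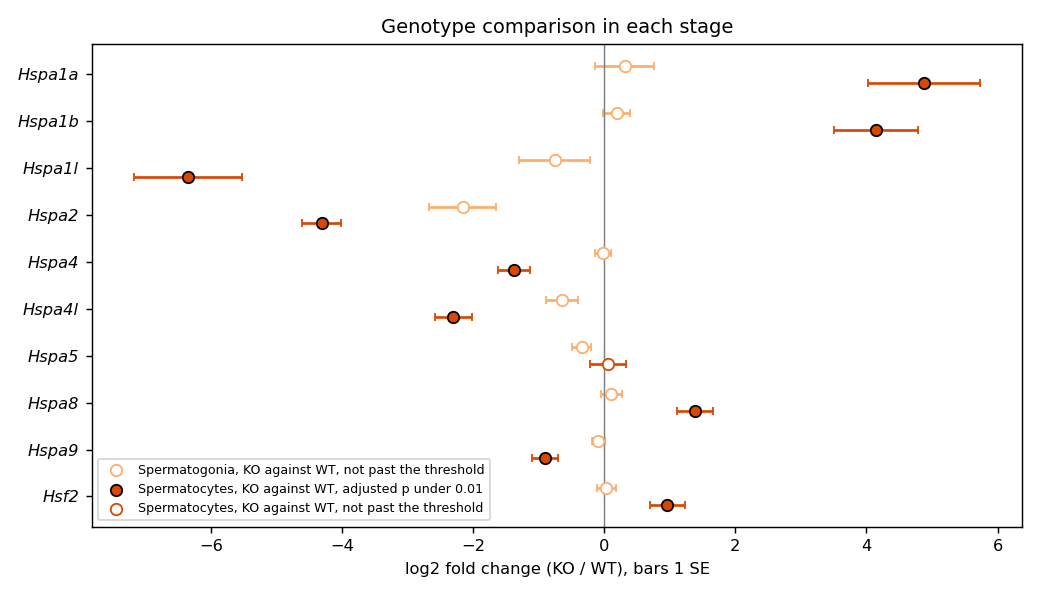
log2 fold change of KO over WT for each member in Spg (light) and Spc (dark), with bars of 1 SE. Filled points passed an adjusted p under 0.01 in edgeR, which was the case for 9 members in Spc, from -6.35 for Hspa1l to 4.88 for Hspa1a, and for none in Spg.

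In spermatogonia none of the 10 members was called, where 0.0436% of all genes were. By DESeq2, which called 514 genes in all, 1 member was called, Hspa2. At an unadjusted p under 0.05 by edgeR there were 3, Hspa2, Hspa4l and Hspa5, all of them lower in KO, and 1509 of 20659 genes in all. The groups did not overlap for those 3, where 12.1% of all genes were without overlap when scaled within Spg. Hspa9 was without overlap in that scaling but overlapped in the CPM given here.

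The genotype effect differed between the stages for 7 members, which is the difference of the KO effect in Spc and in Spg over all 14 libraries, with 25.7% of all genes called. Of all genes 11.1% were higher and 14.6% lower, and of the members 2 were higher and 5 lower. The difference was 4.50 for Hspa1a (SE 1.06, adjusted p = 0.00458 by edgeR), 3.89 for Hspa1b and -5.67 for Hspa1l on the log2 scale. It was -2.22 for Hspa2, -1.71 for Hspa4l, -1.40 for Hspa4 and -0.87 for Hspa9, and Hspa8 (1.22, adjusted p = 0.0159), Hsf2 (0.88, adjusted p = 0.0495) and Hspa5 (0.35, adjusted p = 0.396) did not pass. The Hspa2 and Hspa9 differences were close to the threshold, at adjusted p-values of 0.00578 and 0.00605. With 1 library left out, the Hspa2 call was lost in 12 of 14 fits, all but those without WT Spg replicate 2 or WT Spc replicate 3, and the differences over all 14 were -3.01 to -1.76, with -3.01 without WT Spg replicate 2, where the call was kept. The Hspa9 call was lost in 13 of 14, all but the fit without WT Spc replicate 3, with differences of -0.96 to -0.69 over all 14. Under library totals the Hspa2 and Hspa9 differences were -1.46 and -0.13, neither of them called, beside a median of all genes of 0.90 rather than 0.20. Both calls were also lost with Spc replicates 1 and 4 summed and with the KO pair left out, and that of Hspa9 with no filter beyond 1 count. The Hspa1a difference was 2.41 (adjusted p = 0.0232) without KO Spc replicates 1 and 4 and 3.98 (adjusted p = 0.0184) with Spc replicates 1 and 4 summed, and it lost its call in 3 of 14 fits with 1 library left out (without KO Spg replicate 2 or 3 or WT Spg replicate 1). Hspa4l lost its call in 4 of 14 (without KO Spg replicate 1 or 2 or WT Spg replicate 1 or 3) and under library totals (-0.97, adjusted p = 0.0264). Hspa4 lost it in 2 of 14 (without KO Spg replicate 3 or WT Spg replicate 1), under library totals (-0.62) and with Spc replicates 1 and 4 summed (-1.30) or the KO pair left out (-1.14). Hspa8 was called under 4 of 23 alternatives, by DESeq2 (1.21, adjusted p = 0.00424), under library totals (1.88, adjusted p = 0.006), with no filter beyond 1 count and without WT Spc replicate 3, and Hsf2 under 1, without WT Spc replicate 3 (adjusted p = 0.00563). With the replicate number as a block, 3 members were called, and Hspa1a (3.99), Hspa1b (3.72), Hspa4 (-1.39) and Hspa9 (-0.87) were lost at differences of similar size. Hspa1l was called in this comparison under all 23 alternatives.

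The step from Spg to Spc was then taken within each genotype. In WT, 8 members were called, against 52.5% of all genes, with 5 higher and 3 lower in Spc (29.2% and 23.3% of all genes). Hspa1l rose by 6.41 on the log2 scale, Hspa2 by 3.56, Hspa4l by 2.48, Hspa9 by 1.00 and Hspa4 by 0.74. Hspa1b fell by 2.86, Hspa8 by 1.77 and Hsf2 by 1.17, with adjusted p-values of at most 0.000745 for these 3. Hspa1a (-2.24, adjusted p = 0.0153) and Hspa5 (0.16, adjusted p = 0.569) were not called. Hspa1a was called under 6 of 22 alternatives, among them DESeq2 (-2.26, adjusted p = 0.00379) and library totals (-2.99, adjusted p = 0.00309). The median gene was at 0.02, and at -0.76 under library totals, where Hspa4 turned to -0.11 and Hspa9 was no longer called (0.17, adjusted p = 0.266). Besides that reversal, the Hspa4 call was lost in 18 of the 23 alternatives, the replicate block among them (0.74, adjusted p = 0.0246), and when any 1 library other than WT Spc replicates 2 and 3 was left out. Without WT Spg replicate 2 the rise of Hspa2 was 4.29.

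In KO, none of the 10 members was called between Spg and Spc, where edgeR called 3.05% of all genes (742 of 24340). DESeq2 also called none of the 10, and 2337 genes in all. At an unadjusted p under 0.05 by edgeR there were 6 members, and 5962 of all genes. The groups did not overlap for Hspa2 and Hspa5, which were higher in KO Spc, or for Hspa4 and Hspa8, which were lower there, as for 26.4% of all genes. Hspa2 was at 67.6 to 74.1 CPM in KO Spg and 113.1 to 216.5 CPM in KO Spc (log2 fold change 1.34, 95% interval 0.56 to 2.11, adjusted p = 0.0515). Hspa1l had a difference of 0.74 with an interval of -0.66 to 2.14, Hspa4l of 0.77 (0.25 to 1.28) and Hspa1a of 2.27 (0.77 to 3.76). Hspa4 had a difference of -0.66 (-1.05 to -0.26), opposite in sign to that in WT, Hspa8 of -0.55 (-1.05 to -0.05) and Hspa5 of 0.51 (0.05 to 0.97). Without KO Spc replicates 1 and 4 the Hspa1a difference was 0.0336 (adjusted p = 0.999), so it rested on those libraries. These intervals are wide, so the count of 0 does not show that the levels were equal. The comparisons in WT and in KO share no library.

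Per length, the makeup of the family was read as CPM per kilobase of exon. Hspa8 led in Spg, at 299.1 ± 44.3 in WT and 329.4 ± 46.3 in KO (SD, n = 3), ahead of Hspa5 at 216.3 ± 33.8 and 174.5 ± 8.15. In WT Spc, Hspa2 led at 1340.8 ± 234.5 (SD, n = 4), followed by Hspa5 at 241.3 ± 62.2. Hspa9, Hspa4 and Hspa4l came next at 152.9, 132.2 and 123.2, each within 1 SD of its neighbour in this order. Hspa8 followed at 87.8 ± 35.4, about 1 SD from Hspa4l and so not clearly apart from it. In KO Spc, Hspa5 (248.5 ± 59.7) and Hspa8 (224.6 ± 19.8) came first and did not differ beyond their spread, and Hspa2 followed Hspa9 at 66.8 ± 17.1, within 1 SD of Hspa9 and Hspa4. Hspa1l was last in both Spg groups and in KO Spc but above Hsf2, Hspa1b and Hspa1a in WT Spc, and Hspa1a and Hspa1b were last in WT Spc.

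Hspa2 made up 56.7% to 68.3% of the per-length sum of the 9 HSP70 genes in the 4 WT Spc libraries and 6.81% to 10.3% in the 4 KO libraries. In Spg it was 5.96%, 9.79% and 25.6% in WT and 3.71% to 3.76% in KO. Hspa8 made up 30.8% to 50.7% in the 6 Spg libraries and 26.1% to 40.3% in KO Spc. Of all counts, the 9 genes together took 0.517% to 0.561% in WT Spc and 0.341% to 0.369% in KO Spc. In Spg they took 0.413% to 0.439% in WT and 0.365% to 0.407% in KO, so KO was lower without overlap in both stages. The sum includes Hspa2, which was itself lower in KO without overlap in both stages, and the share without Hspa2 was not taken. Of all single genes, 68.4% in Spc and 12.1% in Spg were without overlap. A per-length level rests on the union of annotated exons, which is longer than the longest transcript for all members but Hspa1a, Hspa1b and Hspa1l. For Hsf2 it is 9606 against 4527 bases, for Hspa4l 11792 against 9479, for Hspa9 4310 against 3049 and for Hspa8 4301 against 3158. By the longest transcript Hspa8 was above Hspa5 in KO Spc, at means of 305.8 and 286.2. In WT Spc, Hspa9 was then at 216.1 and Hspa4 at 158.2.

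**Figure D4:**
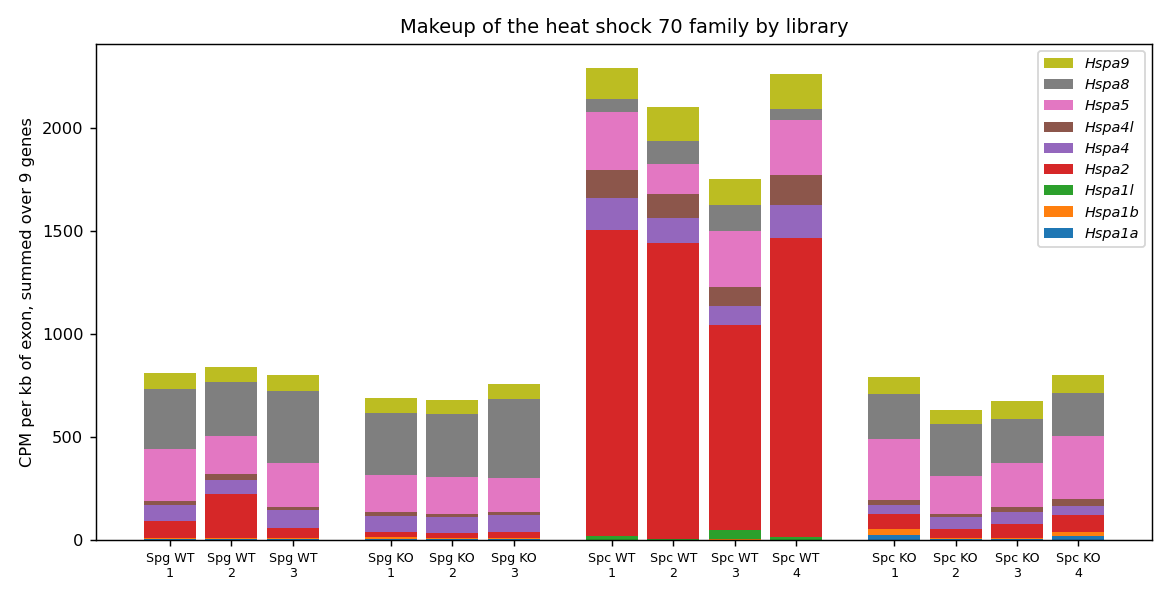
Stacked CPM per kilobase of exon of the 9 HSP70 genes in each of the 14 libraries, grouped by stage and genotype. Hspa2 fills most of the bar in the 4 WT Spc libraries (56.7% to 68.3%), and Hspa8 and Hspa5 are the largest parts in KO Spc and in Spg, except WT Spg replicate 2, where Hspa2 (25.6%) exceeds Hspa5 (21.9%).

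Chaperone genes outside the family were counted from 8 lists of cochaperones and other chaperone classes, 123 genes in all. In Spc 74 of the 121 tested were called, 61.2% against 58.8% of all genes, so the number called was near the background. Of these 17 were higher and 57 lower in KO (28.0% and 30.7% of all genes), with a median log2 fold change of -0.71 against 0.11 over all genes. In Spg none of 115 was called by edgeR (0.0436% of all genes), 15 had an unadjusted p under 0.05 (1509 of 20659 genes in all), and DESeq2 called 5 (514 genes in all). J-domain genes, which start the ATP cycle of HSP70, were called in 25 of 48 cases (52.1%, below the 58.8% of all genes), 3 higher and 22 lower. Each count that follows stands against the same 28.0% of all genes higher and 30.7% lower. The nucleotide exchange factors and cochaperones had 7 of 13 lower and none higher, the HSP90 system 4 of 7 lower and 1 higher, and the cytosolic and mitochondrial chaperonins 8 of 11 lower and 2 higher. Of the genes of ER folding and the unfolded protein response 6 of 19 were higher and 5 lower, of the small heat shock proteins 3 of 9 higher and 4 lower, of the heat shock factor group 1 of 8 higher and 5 lower, and of the other HSP70 and HSP110 genes 1 of 6 higher and 2 lower.

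Among called genes with a mean count of at least 100, the 5 largest falls were in germ cell genes. Dnajb8 had 76 to 1141 counts in the WT and 0 to 2 counts in the KO Spc libraries, and Dnajc5b had 86 to 1348 and 0 to 4 counts, too few in KO for a fold to be given. Dnajb13, an axoneme protein, fell from between 95.5 and 180.6 CPM to at most 0.53 CPM (log2 fold change -8.60, SE 0.485). Hspb9, a testis small heat shock protein, fell from between 178.6 and 669.4 CPM to at most 2.12 CPM, and Odf1, of the sperm outer dense fibres, from between 10.1 and 135.0 CPM to at most 0.4 CPM. The 5 largest rises by the same rule were Hspa12b (4.43), an HSP70 relative of endothelial cells, Eif2ak3 (3.67) and Ern1 (2.49), which encode the ER stress sensors PERK and IRE1, the small heat shock protein gene Cryab (3.54) and Hspd1 (2.92), the mitochondrial chaperonin. Without KO replicates 1 and 4, Cryab (2.07, adjusted p = 0.0138 by edgeR) and Ern1 (2.26, adjusted p = 0.0153) were no longer called, and Hspa12b was at 3.43.

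Further chaperone genes were named after their values were seen, so they describe single genes and not a group. Dnajb1 (HSP40) was at 306.2 to 772.6 CPM in WT and 83.3 to 105.4 CPM in KO Spc, a log2 fold change of -2.58 (SE 0.324, adjusted p = 9.85e-05 by edgeR). Hsph1 (HSP105) had -0.59 (adjusted p = 0.00903) and Hsp90aa1 had -1.06 (adjusted p = 0.00367), while Hspe1, the partner of Hspd1, had 2.28 (adjusted p = 0.00201). Hspb1 (HSP27) was at 4.13 to 8.67 CPM in WT and 6.52 to 21.0 CPM in KO Spc, overlapping and not called (1.43, adjusted p = 0.0137). In Spg Dnajb1 was at 73.0 to 95.9 CPM in WT and 73.5 to 83.0 CPM in KO.

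**Figure D5:**
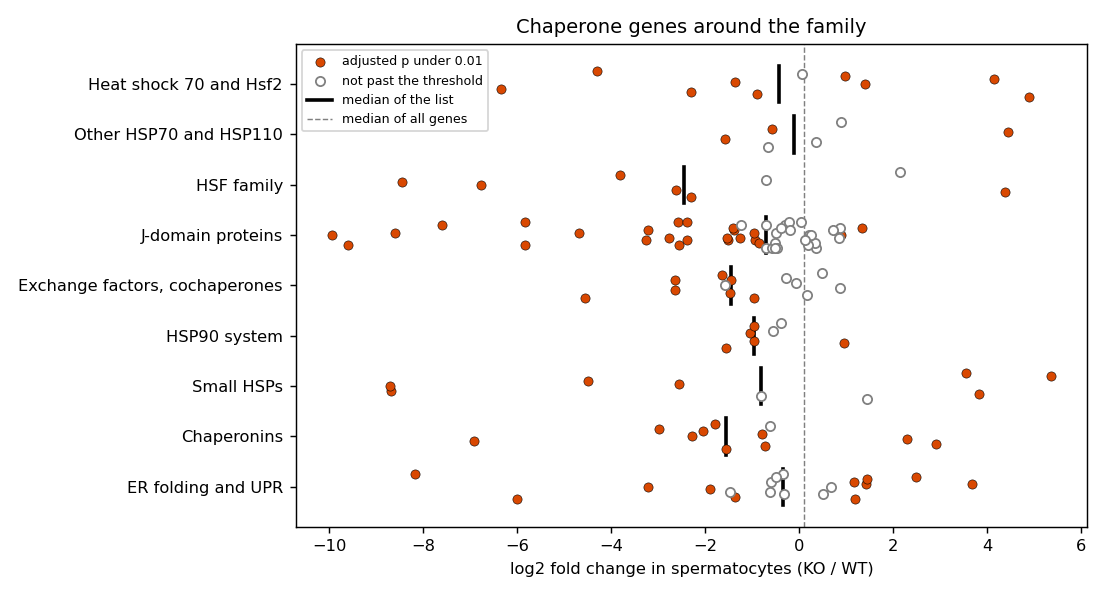
log2 fold change of KO over WT in Spc for the 10 members and the genes of the 8 chaperone lists, with 1 point per gene, filled where the adjusted p was under 0.01 in edgeR. Black bars mark the list medians, which all lie left of the dashed median of all genes (0.11).

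Genes with the most similar pattern over the 14 libraries were sought by the root mean square difference of centred log2 CPM among 9093 genes. Nearest to Hspa2 were Meikin (0.164 log2 units), a kinetochore regulator of meiosis I, 1700088E04Rik (0.234) and Hsf5 (0.243), where the median gene was at 2.43. Meikin had a median of 57.7 CPM in WT Spc, 3.08 CPM in KO Spc, 4.1 CPM in WT Spg and 0.78 CPM in KO Spg. Nearest to Hspa1l were Txndc2 (0.280), a thioredoxin of the sperm tail, Pdzk1 (0.281) and Csnka2ip (0.302), and Txndc2 had its lowest WT Spc library at 5.43 and its highest at 92.4 CPM. Among the nearest to Hspa4l were Gm884 (0.113) and Bbs7 (0.153), a gene of primary cilia. Nearest to Hspa1b were Efnb1 (0.193), Dmd (0.228) and Mir8114 (0.233), with Efnb1 at 21.6 to 74.3 CPM in KO Spc and 1.36 to 4.93 CPM in WT Spc. Nearest to Hsf2 were Fam53c (0.120), Dip2b (0.121) and Oga (0.137), where the median gene was at 1.17.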

How the data were processed

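RNA from 14 libraries of sorted Spg and Spc had been prepared with a stranded poly(A) kit from 10 ng of input. Per the labels and methods, the authors trimmed reads (cutadapt 4.0), aligned them to GRCm38 with STAR 2.7.3a and GENCODE M25, with at most 100 alignments kept for a read, and ran TEtranscripts. The deposited tables therefore hold unnormalised counts for genes and for subfamilies of transposable elements. The authors' own fold changes and p-values (DESeq2 1.44.0) in the same tables and the TPM of single repeat copies were not used. One further Spg library per genotype, excluded by the authors for RNA quality, was not analysed here.

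The tests were run with edgeR 4.0.16 under R 4.3.3 (low counts removed by filterByExpr, TMM over genes and repeats, quasi-likelihood test, two-sided, Benjamini-Hochberg over all features, called under 0.01), within each stage for KO against WT and over 4 groups for the rest. Alternatives used DESeq2 1.42.0, other scalings, filters and thresholds, the replicate block, sums of Hspa1a with Hspa1b and of Spc replicates 1 and 4, and each library left out. The method was tested on simulated counts. A true log2 change of 2 was recovered in 54% of cases in Spg, 33% in Spc and 6% for the difference between stages. A change of 4 was recovered in 95%, 86.7% and 72%, so a gene not called may still have changed. Leaving out KO Spc replicates 1 and 4 together was chosen after seeing the data. Deviations of same-numbered KO and WT libraries correlated at 0.757, 0.186 and 0.297 in Spg, against -0.636 to 0.335 for libraries of other number. Only replicate 1 stood apart, so a pairing by number is not established. The block changed no member's call in Spg. The study gives 3 biological replicates per genotype for Spg and Spc, whereas 4 Spc libraries per genotype were analysed here. How animals were spread over those 4 libraries is not stated in the sources used here. The p-values measure the spread between these samples, part of which may be technical.

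The members and the gene lists were chosen with earlier results of these data known. Named beside the 10 members were the 5 largest called rises and falls among the 8 chaperone lists (mean count of at least 100, no overlap), the 3 genes most alike in pattern to Hspa1b, Hspa1l, Hspa2, Hspa4l and Hsf2 (mean of at least 5 CPM, group means at least 1 log2 unit apart, 0.5 CPM added), and genes of the partner, immediate-early and marker lists. One result under this rule is not reported here. A gene symbol with more than 1 identifier kept the one with more counts. Positions and lengths came from GENCODE M21 on GRCm38 and promoters from RefSeq (GRCm38.p6). Libraries held 40.56 to 53.32 times 1000000 counts, and a group with at most 3 counts per library was treated as undetected. Plots and tables used Python 3.11.15, pandas 2.3.3, NumPy 2.4.6 and matplotlib 3.10.9.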

Additional observations from a re-analysis of the deposited data

Results flagged for a closer look

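Among the 22 sets of 4 Spc libraries examined for a library far from the other 3, 4 were flagged. Chance alone would flag about 1 in 20 if the 4 libraries were independent, which is unsure as replicates 1 and 4 are so alike. Hspa2 in WT Spc had replicate 3 lowest, at 2619 CPM against 3792.1 to 3931.2 CPM, and the share of counts of the 9 HSP70 genes in WT Spc was highest in the same replicate, at 0.561%. Hspa5 in WT Spc had replicate 2 lowest, at 628.2 CPM, and Hsf2 in KO Spc had replicate 3 highest, at 59.3 CPM. WT replicate 3 had the lowest pachytene sum (9010.6 CPM) and the highest spermatid sum (1268.4 CPM) of the 4 WT Spc libraries, and the part of these in the Hspa2 value was not tested.

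The genotype effect differed between stages by the test of the difference itself for 7 members. On the log2 scale, as the effect in Spc minus that in Spg, it was 4.50 for Hspa1a, 3.89 for Hspa1b, -5.67 for Hspa1l, -2.22 for Hspa2, -1.40 for Hspa4, -1.71 for Hspa4l and -0.87 for Hspa9. Spg and Spc came from mice of different age and by different sorts, which cannot be told apart from the stage.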

How the results depend on the processing

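In Spc, Hspa1a, Hspa1b, Hspa1l, Hspa2, Hspa4l and Hspa8 kept their direction and call under every alternative run. The count of members called was 8 to 9 of 10 with 1 library left out in Spc, 0 to 0 in Spg, 7 to 8 from WT Spg to WT Spc, 0 to 1 from KO Spg to KO Spc (Hspa2 without WT Spg replicate 2) and 2 to 9 for the difference between stages, where it was 2 without WT Spg replicate 1, 3 without KO Spg replicate 2 or 3, and 4 without KO Spg replicate 1 or WT Spg replicate 3. In Spg DESeq2 called 1 member and 5 chaperone genes. For the difference between stages, where 7 members were called, 4 were called under library totals and 3 each under the replicate block, with replicates 1 and 4 of Spc summed and without KO Spc replicates 1 and 4. With the replicate block 9 members were called in Spc, 7 from WT Spg to WT Spc and 0 in Spg and from KO Spg to KO Spc. Numbers did not clearly pair the Spc libraries, whose same-numbered deviations correlated at -0.0326 to 0.198, against -0.163 to 0.114 for other numbers. Without KO Spc replicates 1 and 4, or with 1 and 4 summed, 6 members were called in Spc. Of the chaperone genes, 47 were called for the difference between stages, 73 at an adjusted p under 0.05, 29 without KO Spc replicates 1 and 4, and 33 to 55 with 1 library left out. From KO Spg to KO Spc it was 5, with 13 at 0.05 and by DESeq2, 1 with those replicates summed or left out, and 1 to 6 with 1 library left out (1 without any KO Spg library or KO Spc replicate 1 or 4, 3 without WT Spg replicate 1). The cause was not tested.

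Directions turned for these values, and none of them was called there. Leaving out 1 library gave -0.0976 to 0.8272 for Hspa1a in Spg, -0.0769 to 0.0495 for Hspa4, -0.0117 to 0.2043 for Hspa8, -0.0412 to 0.1567 for Hsf2, -0.1509 to 0.1825 for Hspa5 in Spc and -0.0565 to 0.3351 for Hspa5 from WT Spg to WT Spc. In Spg, Hspa4 turned from -0.02 to 0.0076 under library totals and to 0.01, 0.0233 and 0.0495 without KO replicate 1, KO replicate 2 and WT replicate 3. Hspa1a turned to -0.0976 without KO replicate 1, Hspa8 to -0.0117 without KO replicate 3 and Hsf2 to -0.01 and -0.0412 without WT replicates 1 and 2. Hspa5 in Spc turned to -0.016 with DESeq2 or its size factors, -0.2824 without KO replicates 1 and 4, and -0.01, -0.06 and -0.1509 without KO replicate 1, KO replicate 4 and WT replicate 2. From WT Spg to WT Spc, Hspa4 turned to -0.1099 and Hspa5 to -0.6528 under library totals, and Hspa5 to -0.0565 without WT Spg replicate 2. From KO Spg to KO Spc, Hspa1b turned to -0.3166 and Hspa9 to -0.0195 without KO Spc replicates 1 and 4. The share of Hspa2 in WT Spc was 63.5% by exon union and 59.4% by the longest transcript.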
